A study of Caenorhabditis elegans with 2 samples.

Results

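The regions described here are 287 promoter regions of the X chromosome in L4 larvae, the last larval stage, of the nematode Caenorhabditis elegans. They stood at ranks 1 to 5000 by ChIP-seq signal for NHR-237, a nuclear hormone receptor. They were chosen by their measured signal: all 26787 regions of the authors' combined list of the replicates (the pooled list) were ranked by deposited signal, and a region was kept when it stood at ranks 1 to 5000, lay on X, and had its summit between 1000 bp upstream and 200 bp downstream of the 5′ end of a protein-coding transcript. Of the 4642 X regions in the list, 932 reached ranks 1 to 5000, and 287 of these met the promoter rule. The comparison set is the 899 X promoter regions that ranked below 5000. A region or promoter is called strong here for a rank of 1 to 5000 alone. By value most of the 287 were weak: 225 had a signal below 20, and 25 were among the authors' final peaks. The worms were of strain OP228, which carries the allele unc-119(ed3) on chromosome III and the transgene wgIs228, with GFP and FLAG fused to the C terminus of NHR-237. Both sexes were pooled, whole animals were used and the age beyond the stage is labelled unknown. The samples formed a single group of 2 biological replicates, nothing else was compared in the study, and no untagged strain was used here. Because signal chose the regions and both replicates went into the ranking, values are given as descriptions and no test was made.

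Nuclear hormone receptors are transcription factors with a zinc-finger domain that binds DNA and a domain that binds small lipophilic ligands, and the worm genome holds an expanded family of them. A promoter is the stretch next to the 5′ end of a gene where the transcription machinery assembles. In worms many transcripts lose their first bases by trans-splicing, so the true start can lie upstream of the annotated 5′ end. The worm X chromosome is present as a pair in hermaphrodites and as a single copy in males. A dosage compensation complex, loaded at recruitment sites along X, lowers its transcription in hermaphrodites.

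The sequence around the strongest summits fell into different kinds, shown here as windows of 100 bp on each side of the summit (WBcel235, the same assembly as ce11, plus strand, RefSeq). The 3 strongest regions are shown first, because they held the 9-letter motif CGCGNAGGG, in capitals on either strand. It resembles the motif known from recruitment sites of dosage compensation. The windows of the 3 lie at chrX:14525809-14526009 near nspc-17, chrX:1344958-1345158 near ins-39 and chrX:1627053-1627253 near fbxb-58.
nspc-17: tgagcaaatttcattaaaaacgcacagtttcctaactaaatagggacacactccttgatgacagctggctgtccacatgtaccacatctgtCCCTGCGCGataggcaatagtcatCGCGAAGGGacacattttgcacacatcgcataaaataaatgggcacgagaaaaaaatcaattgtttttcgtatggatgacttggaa
ins-39: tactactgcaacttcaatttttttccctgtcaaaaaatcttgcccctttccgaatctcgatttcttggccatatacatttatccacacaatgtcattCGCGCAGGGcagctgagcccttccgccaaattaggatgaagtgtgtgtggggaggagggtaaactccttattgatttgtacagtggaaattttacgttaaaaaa
fbxb-58: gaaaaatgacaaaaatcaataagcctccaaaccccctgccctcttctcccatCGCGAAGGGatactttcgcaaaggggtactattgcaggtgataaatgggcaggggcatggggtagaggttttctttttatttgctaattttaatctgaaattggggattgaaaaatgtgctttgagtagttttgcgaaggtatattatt
The motif was chosen after these windows had been read, so its presence in them is a description. With C at its free position it contains the shorter motif GCGCAGG.

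The windows below it in signal show what was more common, and capitals there mark 3 motifs on either strand. They are the GA repeat GAGAGA, the motif CTGCGTC, known as a worm promoter motif, and the CG repeat GCGCGC. The 5 windows were picked to show each motif, and lie at chrX:7823188-7823388 near eef-1A.2, chrX:16612415-16612615 near ain-1, chrX:17513598-17513798 near nhr-1, chrX:11522165-11522365 near sdc-2 and chrX:6092130-6092330 near hsp-3.
eef-1A.2: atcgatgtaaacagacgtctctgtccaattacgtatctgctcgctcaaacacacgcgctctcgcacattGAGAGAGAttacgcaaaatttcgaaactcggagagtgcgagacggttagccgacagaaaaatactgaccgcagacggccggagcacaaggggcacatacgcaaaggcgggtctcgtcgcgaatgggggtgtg
ain-1: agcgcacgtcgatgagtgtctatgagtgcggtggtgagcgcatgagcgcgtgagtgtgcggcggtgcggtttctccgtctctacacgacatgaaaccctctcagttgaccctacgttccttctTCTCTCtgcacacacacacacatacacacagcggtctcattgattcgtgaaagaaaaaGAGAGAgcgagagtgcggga
nhr-1: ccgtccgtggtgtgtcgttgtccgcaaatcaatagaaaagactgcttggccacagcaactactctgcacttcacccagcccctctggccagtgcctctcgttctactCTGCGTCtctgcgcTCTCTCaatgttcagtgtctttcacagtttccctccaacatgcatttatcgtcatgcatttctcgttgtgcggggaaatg
sdc-2: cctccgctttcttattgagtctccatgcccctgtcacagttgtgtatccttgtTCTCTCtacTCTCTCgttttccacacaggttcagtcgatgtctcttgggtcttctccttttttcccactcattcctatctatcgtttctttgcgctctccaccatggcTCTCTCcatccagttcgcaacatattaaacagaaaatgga
hsp-3: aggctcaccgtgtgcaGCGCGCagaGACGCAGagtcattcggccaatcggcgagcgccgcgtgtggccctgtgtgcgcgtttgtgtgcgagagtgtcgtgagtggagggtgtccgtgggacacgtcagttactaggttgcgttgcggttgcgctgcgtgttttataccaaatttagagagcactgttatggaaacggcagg
The 5 windows had GC contents of 53.2%, 54.2%, 51.7%, 45.8% and 58.7%, where the X chromosome as a whole had 35.2%. They were picked for motifs, some of them GC-rich, so their GC contents do not stand for the whole set. The median was 41.3% over all X promoter regions of ranks 1 to 5000 and 35.8% over lower-ranked ones.

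Signal was spread over a long tail of weak regions under a few of high signal. The deposited signal, a value per region on a scale that the sources used here do not give, ran from 12.7 to 176 with a median of 15.4 (interquartile range 13.7 to 19.3). Only 3 regions exceeded 100, a further 23 lay between 30 and 100, and 225 were below 20. The deposited −log10 q had a median of 0.554 and a maximum of 2.07, which 35 of the regions reached. The authors' final peaks, kept after a test of irreproducibility between replicates (IDR), included 25 of the 287 regions (8.71%, exact 95% interval 5.72 to 12.6%). Over all regions of ranks 1 to 5000 that share was 4.74%, and since rank set both, the count is given as a description. All 25 stood at or above rank 217, so most of the 287 are regions that the authors' own threshold left out. Intervals here are exact binomial (Clopper-Pearson) for shares and order-statistic for medians, cover counting error only, and treat neighbouring regions as independent.

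The rank limit passed through a smooth stretch of signal. Just inside it were T20B5.2 and F28B4.4 at a signal of 12.70 each and T08D10.5 at 12.76. Just outside were the region shared by tbc-11 and pifk-1 at 12.69, flp-32 at 12.66 and mgl-1 at 12.65.

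**Figure D1:**
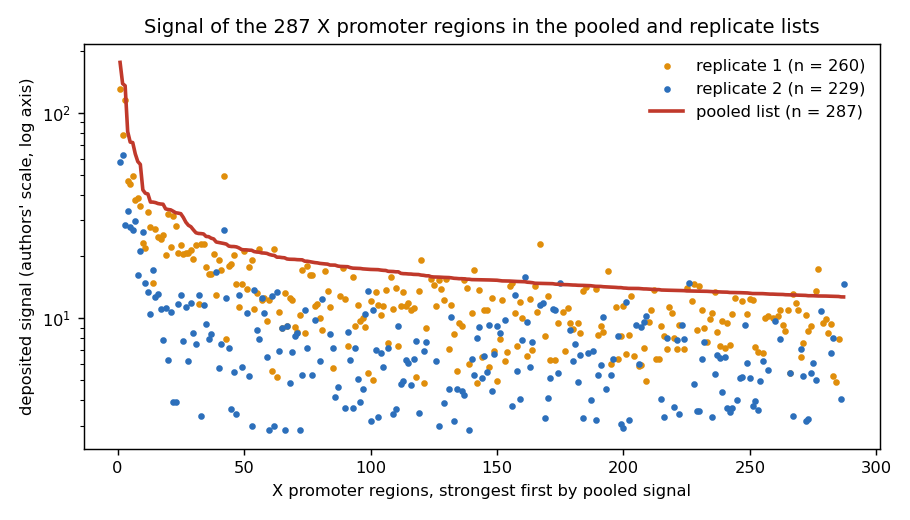
The plot shows the deposited signal (log axis, authors' scale) of the 287 X promoter regions from strongest to weakest, as a line for the pooled list and as points for the 260 regions found in replicate 1 and the 229 found in replicate 2. The line drops from 176 to 12.7, and the replicate points scatter widely beneath most of it.

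The 3 strongest regions lay far upstream of their genes. The region of nspc-17, a gene of a nematode-specific peptide family, had a pooled signal of 176, with 130 in replicate 1 and 57.5 in replicate 2, and its summit was 728 bp upstream. The region of ins-39, which encodes an insulin-like peptide, had 139 in the pooled list, 78.1 in replicate 1 and 62.2 in replicate 2, at 637 bp upstream. The region of fbxb-58, an F-box gene (F-box proteins are substrate adaptors of ubiquitin ligases), had 136, 116 and 28.3, at 984 bp upstream. Scales differ between lists, so the 3 values of a region do not show a loss of signal in a replicate. All 3 were narrower than the 340 bp that every other of the 287 regions measured. Regions under that width were rare on X, 14 at ranks 1 to 5000, and 11 of them lay outside promoters.

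The 9-letter motif was composed from these 3 windows, so only its counts elsewhere carry information. It occurred in none of the other 284 windows, which allows a share of up to 1.06% by a limit of 3 counts. It was present in 3 of the 899 lower-ranked X promoter windows (0.334%). Without the 3 strongest, it was present in 6 of the other 10 X windows at ranks 1 to 25, and in 7 of the 11 narrow X regions outside promoters. These counts are not separate, since most of their regions are the same. Among all 645 X regions outside promoters at ranks 1 to 5000, 11 held the motif (1.71%). It occurred in 9 of 4042 autosomal windows of ranks 1 to 5000 and in 0.146% of all pooled windows. Of 4114 windows of the same length centred 250 bp upstream of X 5′ ends, 0.122% held it. The next region, puf-9, stood at 81.2, so the signal also had a gap below 136.

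Below that gap came genes of several kinds. The region of puf-9, which encodes a Pumilio-family RNA-binding protein, had 81.2 in the pooled list, 46.4 in replicate 1 and 33.2 in replicate 2, 273 bp upstream. The region of serp-1.1 followed with 72.1, 45.3 and 27.7, 247 bp upstream. The region of ftt-2, which encodes a 14-3-3 protein, had 71.8, 49.5 and 26.9, 518 bp upstream. All 3 were high in both replicates, at ranks 44 to 57 of each replicate's own list. The region of ain-1, a GW182 protein of the microRNA silencing complex, had 63.3, 37.7 and 29.7 and lay 936 bp upstream. The region of nipi-3, a Tribbles-family pseudokinase known from innate immunity, had 58, 38.3 and 16.3, 233 bp upstream. The region of eef-1A.2, which encodes translation elongation factor 1A, had 56.2, 35.4 and 21.2, 366 bp upstream. These stood at ranks 48 to 144 of both replicates' lists.

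The remaining regions of the 25 strongest had pooled signals of 32.3 to 42.2. They included epn-1 (epsin, an adaptor of endocytosis, 42.2), nhr-1 (a nuclear hormone receptor, 40.6), hsp-3 (the endoplasmic reticulum chaperone BiP, 36.8) and osm-11 (a secreted Notch co-ligand, 36.2). Others were tsp-21 (a tetraspanin, 36), vha-15 (subunit A of the vacuolar proton pump, 35.9), rpl-11.2 (a ribosomal protein, 33.9) and mdl-1 (a MAD-like helix-loop-helix factor, 33.7). The set also held sucl-1 (succinyl-CoA ligase, 32.6), sto-4 (a stomatin, 32.5) and kin-29 (a salt-inducible kinase, 32.3). Its other regions were those of ZK1193.2 (40.3), sym-4 (36.8), B0410.3 (36.6), sdc-2 (34.1) and F17E5.2 (33.2). The region of epn-1 had 23.3 in replicate 1 and 26.4 in replicate 2, and that of hsp-3 had 14.9 and 17.1. By rank within each list, epn-1 stood at 215 in replicate 1 and 59 in replicate 2, and hsp-3 at 910 and 124. The deposited value was higher in replicate 2 for 42 of the 204 regions found in both replicates. Because scales differ between lists, that count does not show which replicate was stronger.

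A few strong regions rested mostly on replicate 1. The region of F17E5.2 had 31.6 in replicate 1 and 3.89 in replicate 2, where it ranked 18687. The region of sucl-1 had 28.1 and 3.89, at rank 18639 of replicate 2. The region of rpl-11.2 had 32.3 and 6.27, at rank 5691. All 3 are nevertheless among the authors' final peaks.

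Over all 287, presence in the replicates was uneven. Replicate 1 held 260 (90.6%) and replicate 2 held 229 (79.8%), where a region counts as found when a region of the replicate's list of 30000 overlaps it by at least 1 bp. Both replicates held 204 (71.1%, interval 65.5 to 76.3%), against 62.5% of all regions of ranks 1 to 5000. Among the lower-ranked X promoter regions the share was 24.4%, among X regions outside promoters at the same ranks 59.8%, and among autosomal promoter regions 67.2%. Replicate 1 alone held 56 and replicate 2 alone 25, and 2, near abf-5 (which encodes an antibacterial peptide) and M79.2, were in neither list. Each list includes background by design, so presence alone says little. Only 57 regions (19.9%) stood at ranks 1 to 5000 of both replicates' own lists, near the 16.1% of all regions of ranks 1 to 5000. That share was 18.4% for X regions outside promoters and 20.7% for autosomal promoter regions at the same ranks.

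Presence in both replicates fell with rank. All 26 regions of ranks 1 to 250 were held by both (100%), as were 95.7% of 47 from rank 251 to 1000, 74.4% of 86 from rank 1001 to 2500 and 53.9% of 128 from rank 2501 to 5000. The regions of ranks 1 to 250 held in both included 3, those of F17E5.2, sucl-1 and rpl-11.2, that ranked below 5000 in replicate 2. Over the 204 regions held in both, the replicates agreed little on signal, with a Spearman rank correlation of 0.118. It was 0.138 over all regions of ranks 1 to 5000 and 0.297 over X regions outside promoters at these ranks. Pooled signal chose the regions, so these values are descriptions.

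**Figure D2:**
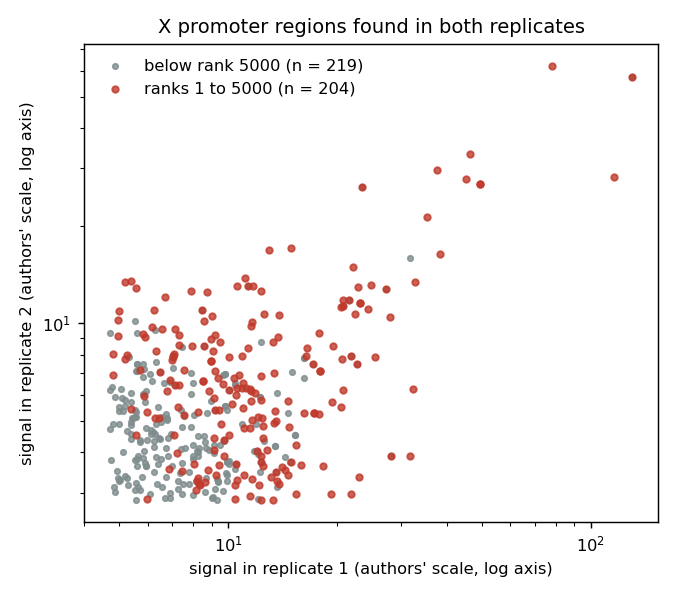
Each point is an X promoter region found in both replicates, with its deposited signal in replicate 1 on the horizontal and in replicate 2 on the vertical log axis. The 204 regions of ranks 1 to 5000 (red) and 219 lower-ranked ones (grey) overlap at low signal, while a few red points stand apart at the upper right.

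Regions on X fell in promoter windows more often at high ranks than at low ranks. The share was 30.8% (interval 27.8 to 33.9%) at ranks 1 to 5000 and 24.2% (22.9 to 25.6%) below. On autosomes it was 36.9% and 29.7%. Promoter windows cover 21.8% of X and 27.1% of the autosomes. The window geometry thus differs between them in the same direction as the shares.

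Summits lay mostly upstream. The median position was 261 bp upstream of the nearest 5′ end in reach (interval 328 to 227 bp upstream), against 324 bp for lower-ranked X promoter regions and 244 bp for autosomal promoter regions of ranks 1 to 5000. Of the 287, 93 lay 1 to 250 bp upstream (32.4%), 66 lay 251 to 500 bp upstream (23%) and 81 lay 501 to 1000 bp upstream (28.2%). The other 47 (16.4%) lay 0 to 200 bp downstream. In all, 23 summits (8.01%) fell in a coding exon, 22 (7.67%) in a 5′ UTR and 110 (38.3%) in the body of some gene. Among lower-ranked X promoter regions these shares were 11%, 6.23% and 44.5%. Over all regions of ranks 1 to 5000, promoter or not, they were 16.7%, 2.4% and 57.5%. With a window from 500 bp upstream to 100 bp downstream the order of the X medians turned, to 200 bp upstream for the strong regions and 186 bp for the others.

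**Figure D3:**
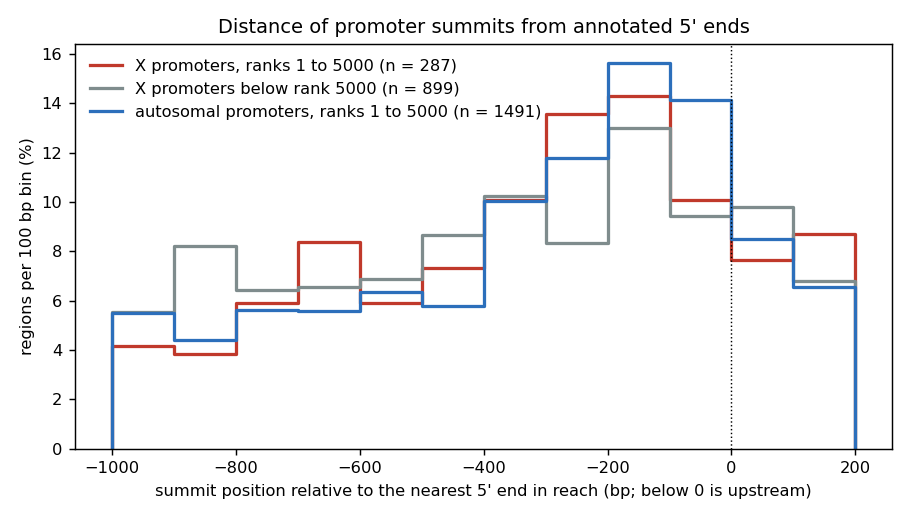
The lines give, per 100 bp bin of summit position relative to the nearest annotated 5′ end (below 0 is upstream), the percentage of regions in each of 3 groups: 287 strong X promoter regions, 899 lower-ranked ones and 1491 strong autosomal ones. In all 3 the bin from 200 to 100 bp upstream is the highest.

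Few of the X promoter regions lay between divergent genes. Only 10 summits (3.48%, interval 1.68 to 6.31%) were within the windows of genes on both strands, against 4.34% of lower-ranked X promoter regions and 17.7% of autosomal promoter regions of ranks 1 to 5000. Bases in windows of both strands made up 3.31% of all window bases on X and 9.90% on autosomes. The X share thus lay close to the share of X window bases. The strongest of the 10 was the region shared by C28G1.2 and sec-15, an exocyst subunit, with 21.1 in the pooled list, 11.1 in replicate 1 and 13.8 in replicate 2.

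Regions and genes mapped nearly one to one. The 287 regions touched the windows of 282 genes, 10.3% of the 2731 protein-coding X genes, and 266 of these genes had 1 region. A lower-ranked region alone was found for 719 genes and no region for 1730. Exactly 2 regions were found for 14 genes. The actin gene act-4 had 3, with signals of 21, 17.9 and 17.5, and peb-1, which encodes a DNA-binding protein of the pharynx, had 5, with signals of 25.7, 16.3, 15.3, 14.8 and 13.3. The 5 peb-1 regions are not 5 separate findings: those of 25.7 and 14.8 overlapped the same region of each replicate, and those of 15.3 and 13.3 the same region of replicate 1. Neighbouring summits lay a median of 39807 bp apart, with 6 overlapping pairs. Genes of small RNAs were near 9 of the 287, within 500 bp of the summit: tRNA genes for 7, the snoRNA gene D2021.6 for 1 and the miRNA gene cel-mir-271 for 1. The share over other regions is not given here, so this count is a description.

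The windows were GC-rich relative to weaker X promoters, and more so toward the top of the list. The windows had a median GC content of 41.3% (interval 39.8 to 43.8%), against 35.8% for lower-ranked X promoter regions, 36.8% for X regions outside promoters at the same ranks and 37.8% for autosomal promoter regions at the same ranks. By rank the median stood at 48.5% for ranks 1 to 250 and 49.3% for ranks 251 to 1000. It was lower beyond, 40.8% for ranks 1001 to 2500 and 37.6% for ranks 2501 to 5000. Below rank 5000 it stayed between 34.8% and 36.3%. Autosomal promoter regions had a gradient too, from 44.3% through 40.8% and 37.8% to 35.8% over the first 4 ranges. On X the order of strong and weaker promoters held in every stretch of position. At 501 to 1000 bp upstream the medians of strong and lower-ranked X promoters were 39.3% and 33.3%, at 251 to 500 bp 44.3% and 34.8%, at 1 to 250 bp 43.8% and 38.1%, and downstream 39.8% and 37.3%. Each replicate's own list showed the same gradient, with medians over X promoter regions of 47.5% in replicate 1 and 47.8% in replicate 2 at ranks 1 to 250, and 38.3% and 36.1% at ranks 2501 to 5000. Repeat-masked bases took a median of 20.4% of a window, against 26.9% in lower-ranked X promoters, and 20 windows (6.97%) were masked over at least 50% of their length, against 15.6%. Whether GC-rich windows also give signal without the tagged protein was not tested.

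GAGAGA was the most frequent of the motifs that were more common in the strong windows. It occurred on either strand in 35.9% of the 287 windows (interval 30.3 to 41.7%). Over all regions of ranks 1 to 5000 the share was 21.6%, in lower-ranked X promoters 14.5%, in autosomal promoters of ranks 1 to 5000 23.7%, and in the 4114 windows upstream of X 5′ ends 17%. By rank it was 46.2% at ranks 1 to 250, 51.1% at 251 to 1000, 36% at 1001 to 2500 and 28.1% at 2501 to 5000, then 13.4% to 15.8% below. Autosomal promoter regions also fell with rank, from 41.6% through 30.7% and 24.3% to 17.4% over the same 4 ranges. Upstream of the gene the share was 37% to 42.4% in each of the 3 distance bins, and it was 14.9% downstream. The 3 strongest regions held none, and 12 of the next 23 did.

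The GAGAGA difference rested mostly on replicate 1. When regions were ranked within the list of replicate 1, X promoters of ranks 1 to 5000 held GAGAGA in 29% of windows against 14.7% lower down. Within the list of replicate 2 the shares were 17.3% and 16.7%. In the first 250 ranks of replicate 2 the share was 27.8% (5 of 18, interval 9.69 to 53.5%) and in ranks 251 to 1000 27.7% (13 of 47, interval 15.6 to 42.6%), against 50% and 42% in replicate 1. At ranks 2501 to 5000 of replicate 2 it was 12.5%, at or below the level of its weaker regions. Among the 287, GAGAGA occurred in 37.7% of those held by both replicates, 32.1% of those held by replicate 1 alone and 28% of the 25 held by replicate 2 alone, with overlapping intervals.

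**Figure D4:**
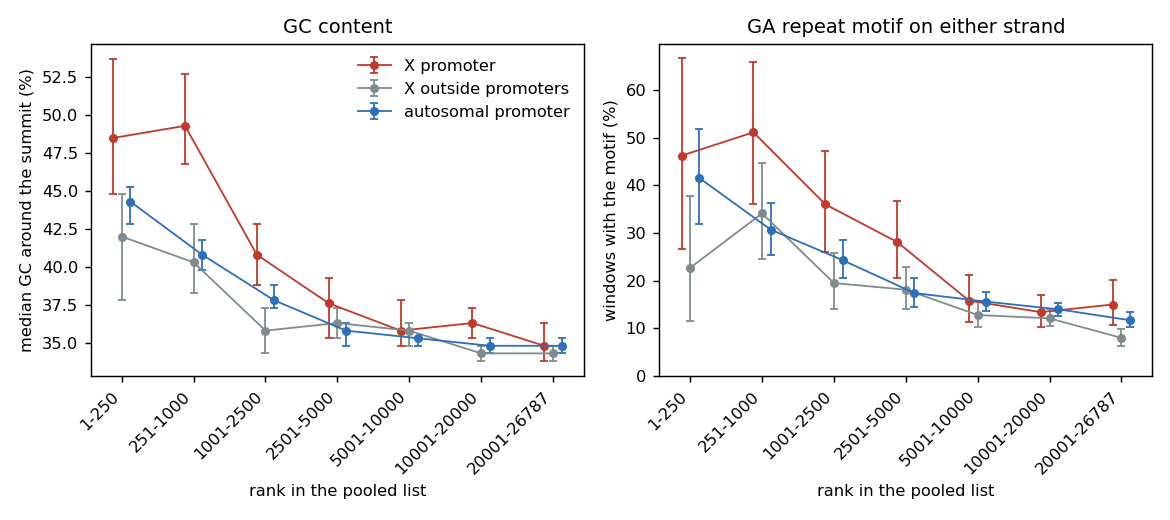
The left panel gives the median GC content and the right panel the share of windows around the summit with the GA repeat motif, by rank in the pooled list, for X promoter regions (red), X regions outside promoters (grey) and autosomal promoter regions (blue), with 95% intervals. In X promoters both values are highest in the first 1000 ranks, 48.5% and 49.3% GC and 46.2% and 51.1% with the motif, and flat below rank 5000.

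Other motifs were searched in the same windows on both strands. CACACA, a CA repeat, occurred in 24.7% of the 287 against 12.3% of lower-ranked X promoters and 12.3% of the windows upstream of X 5′ ends. Ranked in replicate 1 alone the first pair was 23.9% and 13.8%, and in replicate 2 alone 16.5% and 12.9%. Autosomal promoters of ranks 1 to 5000 held it in 16.9%. CTGCGTC occurred in 20 windows (6.97% against 2.45% and 2.26%), GCGCGC in 14 (4.88% against 2.78% and 2.53%) and GGGCGG, the GC box, in 27 (9.41% against 5.34% and 4.42%). Autosomal promoters of ranks 1 to 5000 held these motifs about as often, CTGCGTC in 7.65%, GCGCGC in 6.24% and GGGCGG in 8.18%. At least 1 of the GA repeat, CTGCGTC and the CG repeat was in 119 windows (41.5% against 18.1%). That share was 26% over all regions of ranks 1 to 5000. At these ranks it was 31.1% for autosomal promoters and 24% for X regions outside promoters. Most of the 119 windows held GAGAGA, whose difference rested mostly on replicate 1. AT-rich motifs went the other way: TTTTTTT in 31.7% against 41.5% (40.9% upstream of X 5′ ends), TATAAA, the TATA box, in 15.3% against 23.6% (23.7%), and TTTCAG, the splice acceptor, in 22.3% against 29.7% (23.1%). The motifs that were less frequent are AT-rich, and base composition and motif were not separated here.

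The sites that nuclear hormone receptors are known for showed little difference. The receptor half-site AGGTCA occurred in 22 windows (7.67%, interval 4.87 to 11.4%), against 6.90% of lower-ranked X promoters and 6.10% of windows upstream of X 5′ ends. Its variant AAGTCA occurred in 28 (9.76%, interval 6.58 to 13.8%), against 10.3% and 10.2%. For both, the order of the groups turned under other settings. The GATA site TGATAA occurred in 16.0% against 18.5% (22.1%), the E-box CACGTG in 3.83% against 3% (3.28%), and GCGCAGG in 1.05% against 0.779% (0.583%).

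By gene function, the 27 lists with X genes differed in how many of their genes had a strong promoter region. Across all protein-coding X genes the share was 10.3%, which is the level against which each list is given. Across all autosomal protein-coding genes it was 9.75%. Lists of few genes have wide intervals, and members of one list can be neighbours on X.

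Chaperones had the highest share among lists of at least 5 X genes, 6 of 8 (interval 34.9 to 96.8%). On autosomes 28.3% of chaperone genes had a strong promoter region, against 9.75% of all autosomal genes, so a raised share was not particular to X. The region of hsp-3 had 36.8 and that of uggt-1, which glucosylates misfolded glycoproteins in the endoplasmic reticulum, had 31 in the pooled list, 20.6 in replicate 1 and 7.73 in replicate 2. The others were hsp-43 (19.2), dnj-14 (17.4), pdi-2 (a protein disulfide isomerase, 13.5) and hsp-25 (12.8). Both replicates held all 6, although pdi-2 and hsp-25 stood close to the rank limit. The region of dnj-14 also lay in the window of glit-1. With regions ranked in 1 replicate alone, the count was 5 of 8 in replicate 1 and 4 of 8 in replicate 2.

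Of the nuclear hormone receptor genes, the family of NHR-237 itself, 7 of 27 on X had a strong region (25.9%, interval 11.1 to 46.3%), where 7.29% of autosomal ones did. The region of nhr-1 had 40.6 in the pooled list, 22 in replicate 1 and 14.9 in replicate 2. That of nhr-14 had 23, 7.90 and 12.6, that of nhr-40 had 20.5, 12.3 and 2.84, and that of nhr-3 had 19.8, 5.2 and 13.4. By rank within each list, nhr-1 stood at 250 in replicate 1 and 192 in replicate 2. The region of nhr-14 stood at 10002 and 339, that of nhr-40 at 2024 and 29932, and that of nhr-3 at 25674 and 276. The regions of nhr-14, nhr-40 and nhr-3 thus rested mostly on 1 replicate. The region of nhr-48 (21.5) was found in replicate 1 alone. The regions of nhr-28 (15.3) and daf-12 (14.5), the receptor of the steroid hormone dafachronic acid, were weaker and found in both. Ranked in 1 replicate alone, the count was 8 of 27 in replicate 1 and 10 of 27 in replicate 2. Of the 7 regions, that of nhr-1 was the only one among the authors' final peaks.

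Genes of protein synthesis and energy metabolism were few on X. Both ribosomal protein genes had a region, rpl-11.2 (33.9) and rpl-25.1 (15.8), as did 2 of 3 translation factor genes, eef-1A.2 (56.2) and ife-2 (an mRNA cap-binding protein, 15.6). Of 3 vacuolar proton pump genes, vha-15 (35.9) and vha-12 (21) had one. Of 6 respiratory chain genes, asg-2 (15.9) and asb-2 (15), which encode ATP synthase subunits, and sdha-1 (succinate dehydrogenase, 12.8, replicate 1 alone) had one. The asg-2 region is shared with glr-6, a glutamate receptor gene on the other strand, so the gene it belongs to cannot be told apart. Of 5 histone genes, his-24 (19.4) and hil-3 (13.5, replicate 1 alone), both of the linker histone H1 family, had one. These counts varied when 1 replicate alone was ranked. In replicate 1 they were 2 of 2 ribosomal protein, 1 of 3 translation factor, 2 of 6 respiratory chain and 1 of 5 histone genes. In replicate 2 they were 0 of 2, 1 of 3, 1 of 6 and 1 of 5. These lists also stood above the level of all genes on autosomes. The autosomal shares were 53.8% for ribosomal protein, 31.6% for translation factor and 66.7% for vacuolar proton pump genes. They were 30.3% for respiratory chain and 11.7% for histone genes.

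Neuronal and sensory genes, many of which lie on X, gave mostly small counts. None of 39 amine and peptide GPCR genes had a strong promoter region, which allows up to 7.69% by a limit of 3 counts, although 3 did when replicate 2 alone was ranked. The other counts were 1 of 29 for ligand-gated channels (glr-6), 2 of 33 for neuropeptides (nlp-23, 14.1, and nlp-64, 12.9), 2 of 36 for chemoreceptors (srv-7, 15.1, and sru-48, 13), 1 of 21 for axon guidance and adhesion (gpn-1, 13) and 1 of 26 for homeobox genes (vab-3, 12.8). The regions of nlp-23, sru-48 and vab-3 were found in replicate 1 alone. Potassium channels had 2 of 19, close to the level of all X genes: slo-2 (17.6, replicate 2 alone) and kqt-1 (15.9, replicate 1 alone). Synaptic genes had 2 of 11 (18.2%, interval 2.28 to 51.8%), syd-2 (a liprin of the presynaptic active zone, 21.5) and syd-9 (16.3), and 4 of 11 when replicate 1 alone was ranked. Among these lists only the GPCR interval did not include the level of all X genes, and intervals were not corrected for the number of lists. Autosomal shares were 9.86% for GPCR, 4.05% for ligand-gated channel, 8.45% for neuropeptide and 2.95% for chemoreceptor genes. They were 3.85% for axon guidance and adhesion, 6.25% for homeobox, 10.4% for potassium channel and 11.1% for synaptic genes. The level of all autosomal genes was 9.75%.

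Developmental and tissue genes gave small counts. The gene of the dosage compensation list with a region was sdc-2, whose product is known to direct the dosage compensation complex to X: its region had 34.1 in the pooled list, 20.4 in replicate 1 and 11.3 in replicate 2, 442 bp upstream, and was 1 of 6 genes. Signalling genes had 2 of 8, sma-9 (a zinc-finger cofactor of BMP signalling, 18.9, replicate 1 alone) and egl-17 (an FGF, 14.8). Cuticle collagens had 3 of 29, col-176 (23.5), dpy-7 (16.2, replicate 1 alone) and col-166 (15.6). Single genes had one in the insulin-like (ins-39, of 2), heterochronic (daf-12, of 3), sarcomere (act-4, of 11), F-box (fbxb-58, of 17) and detoxification lists (gst-36, of 14, shared with R07B1.5). No gene had one among 13 hedgehog-related and patched-related genes, 6 innexins, 5 vitellogenins and 3 C-type lectins, lists too short for a count of 0 to fall below the level of all X genes.

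**Figure D5:**
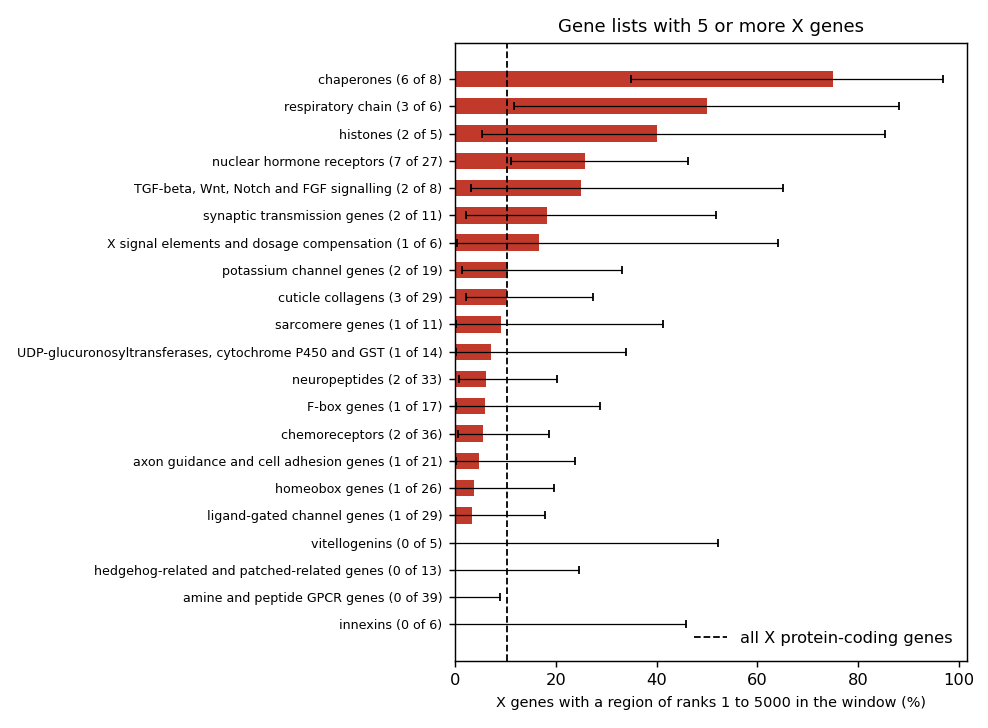
Bars give the percentage of a list's X genes with a promoter region of ranks 1 to 5000, for lists of at least 5 X genes, with exact 95% intervals. The dashed line is the 10.3% of all protein-coding X genes, and the chaperone (6 of 8) and nuclear hormone receptor (7 of 27) intervals lie above it, as does that of the respiratory chain (3 of 6), while the GPCR interval (0 of 39) lies below.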

How the data were processed

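ChIP-seq of tagged NHR-237 was measured in 2 biological replicates of whole larvae. The authors deposited, for each replicate and for both together, a list of candidate regions, background included, that served as IDR input, and the peaks that passed IDR. Per the text files deposited with the samples, the pooled list came from both replicates' alignments and 1 further file, and the IDR peaks came from the pooled and both replicate lists. Each region carries the deposited signal, whose scale is not stated, and the authors' −log10 q-value. The p-value column of the deposited lists holds -1 in place of values. Aligner, peak caller and thresholds: not given in the sources used here. No list holds read counts, so depth is unknown.

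The ce11 lists were analysed in their own coordinates with Ensembl release 115 gene models and the RefSeq WBcel235 sequence, using Python 3.11.15, numpy 2.4.6, pandas 2.3.3, scipy 1.17.1 and matplotlib 3.10.9. Distance, GC content and motifs were taken at the summit, in windows of 100 bp on each side. Steps were tested on simulated data. A gene counted when the window of any of its protein-coding transcripts held a summit. Named are the genes of the 25 strongest regions, up to 4 per list, those next to the rank limit and those with 3 or more regions, and further genes where counts were small, chosen after their values were seen. The members, lists, motifs and settings were chosen with earlier results of these data known. Settings varied were the rank limit, the promoter window, the rule for overlap, the window for GC content, the collapse of overlapping regions, the nearest gene alone and each replicate's own list.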

Additional observations from a re-analysis of the deposited data

How the results depend on the processing

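The 287 regions became 159 with ranks 1 to 2500, 521 with ranks 1 to 10000, 182 with a window from 500 bp upstream to 100 bp downstream and 441 with one from 2000 bp upstream to 500 bp downstream. In the same order the share of X genes with a region was 5.79%, 18%, 6.85% and 16.1%. The promoter share was 19.5% with the narrow window and 47.3% with the wide one. The promoter share stayed above that of lower-ranked X regions in all 7 settings run. Against lower-ranked X promoters, GC content stayed higher in all 11 settings run and presence in both replicates in all 8, which leave out no replicate. Both replicates went into the ranking, so the order for presence in both was partly built in. For GC, the settings limited to IDR peaks, to 340 bp regions and to regions in both replicates changed the strong set only.

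Median GC was 44.3% at ranks 1 to 2500, 39.3% at ranks 1 to 10000, 48.8% over the IDR peaks, and 39.3% to 39.8% when either replicate was left out. Both replicates held 84.9% with the limit at rank 2500 and 54.7% with the limit at rank 10000. The share was 57.1% with 50% reciprocal overlap, 43.9% with summits within 100 bp and 19.9% within the first 5000 ranks of both replicates.

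The divergent share turned to the higher side of lower-ranked X promoters at ranks 1 to 10000 (4.22% against 4.06%), with the narrow window (3.85% against 2.77%) and with the wide one (8.84% against 8.77%), and was 0% over the IDR peaks. The median position relative to the 5′ end was -200 bp against -186 bp with the narrow window, a reversal, and -399 bp with the wide one. The cause was not tested.

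With a replicate left out, the GAGAGA share ran from 17.3% to 29%, CACACA from 16.5% to 23.9%, AGGTCA from 4.71% to 5.04%, below the lower-ranked regions in both cases, AAGTCA from 9.06% to 10.4% and CACGTG from 2.16% to 3.99%. AGGTCA was also lower at ranks 1 to 2500 (5.66% against 7.3%), AAGTCA was higher at ranks 1 to 10000 (10.7% against 9.77%), and GCGCAGG was lower with the narrow window (0.549% against 0.924%). No paired analysis was possible because there is 1 group. The IDR peaks, the 340 bp regions and the replicates' own bins were settings added after the data were seen. Depth is unknown, so no interval covers sequencing error.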
